A study of Mus musculus with 15 samples.

Results

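The 9 genes described here are Acer2, Hddc3, Yod1, Islr, Prrg4, Tkfc, Fbxo21, Akr1e1 and Tdgf1. These genes were chosen by their log2 signals in regulatory T (Treg) cells lacking the transcription factor Eos, alone or together with Helios, against wild-type (WT) arrays 1 to 3. They are 9 of 19938 genes that the array annotation names with a single symbol. All 9 are among the 10964 genes bright enough to be tested, a gene being tested where any of the 5 group means lay above log2 4.96, the median of all probe sets. Because they were selected on the differences of Ikzf4-/- and dKO cells from WT 1 to 3, their values in these comparisons are a description without a test. Only the comparison of Ikzf2-/- with WT 4 to 6, which shares no array with them, was tested for the genes.

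RNA was taken from CD4+CD25+ T cells sorted from mouse spleen and hybridised to 15 single-colour Affymetrix whole-transcript arrays. Signals are on the log2 scale after robust multi-array averaging, so a difference of 1 is a doubling. The groups were WT (6 arrays), Ikzf4-/- (lacking Eos, 3 arrays), Ikzf2-/- (lacking Helios, 3 arrays) and dKO (lacking both, Ikzf2-/-Ikzf4-/-, 3 arrays). The numbering of the WT arrays puts WT 1 to 3 with Ikzf4-/- and dKO, and WT 4 to 6 with Ikzf2-/-. Pairs of arrays had exactly equal values at 2286 probe sets on average in the first set, 34.4 in the second and 0.0741 across sets, so the sets may have been normalised apart. No label states the sets, which are inferred from the numbering and the equal values. Each knockout was therefore set against the WT arrays of its own set. Levels are compared across sets only where all 6 WT arrays are taken as 1 group. The labels name no strain, age, sex, deleted exons or cell type of deletion. No label says that the arrays came from separate animals, so error estimates measure the spread between arrays, which may be partly technical. In sorted cells measured in bulk, fewer cells of a type and less RNA per cell cannot be told apart.

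Helios and Eos belong to the Ikaros family of zinc finger proteins, which bind DNA at sites with a GGGAA core and pair with each other and with Ikaros and Aiolos. Both are expressed in Treg cells, which restrain immune responses under the control of Foxp3. Eos is known as a partner of Foxp3 in the silencing of target genes. The 9 genes are not known as a pathway. They comprise enzymes of lipid, sugar and nucleotide metabolism (Acer2, Tkfc, Akr1e1 and Hddc3), ubiquitin system genes (Yod1 and Fbxo21) and membrane or extracellular proteins (Islr, Prrg4 and Tdgf1).

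The stretches before the start sites of 4 of the genes are shown because, among the 7 genes whose Ikzf4-/- and dKO arrays all lay apart from WT 1 to 3, they span the range of core matches found, from none to 3. Each is 250 bases long, ends at the base before the annotated start and is written 5′ to 3′ on the gene's strand, from RefSeq (GRCm38.p6). Capitals mark GGGAA, or TTCCC where the core lies on the opposite strand. The stretches are Hddc3 at chr7:80342887-80343136 (plus strand), Yod1 at chr1:130717077-130717326 (plus strand), Fbxo21 at chr5:117976520-117976769 (plus strand) and Islr at chr9:58158555-58158804 (minus strand).
Hddc3: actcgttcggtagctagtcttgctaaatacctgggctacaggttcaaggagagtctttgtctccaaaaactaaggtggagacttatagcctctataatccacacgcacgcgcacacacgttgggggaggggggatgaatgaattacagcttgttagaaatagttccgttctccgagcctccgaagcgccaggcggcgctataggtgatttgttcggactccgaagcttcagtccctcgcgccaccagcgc
Yod1: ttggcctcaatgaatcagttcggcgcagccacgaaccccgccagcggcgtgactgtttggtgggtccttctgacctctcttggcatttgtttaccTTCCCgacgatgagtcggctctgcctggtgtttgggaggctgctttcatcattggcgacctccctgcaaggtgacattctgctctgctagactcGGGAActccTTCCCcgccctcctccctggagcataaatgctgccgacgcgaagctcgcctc
Fbxo21: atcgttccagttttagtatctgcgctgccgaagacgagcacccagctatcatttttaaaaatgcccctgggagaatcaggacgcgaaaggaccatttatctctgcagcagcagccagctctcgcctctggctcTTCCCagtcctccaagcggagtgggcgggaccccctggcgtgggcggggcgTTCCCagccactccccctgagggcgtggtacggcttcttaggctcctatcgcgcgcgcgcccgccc
Islr: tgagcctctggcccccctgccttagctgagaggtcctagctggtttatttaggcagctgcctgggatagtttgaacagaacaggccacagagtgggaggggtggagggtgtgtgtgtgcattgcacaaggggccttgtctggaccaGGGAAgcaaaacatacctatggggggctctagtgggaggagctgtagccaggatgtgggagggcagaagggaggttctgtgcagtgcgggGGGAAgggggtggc

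Hddc3 had no core match in this window, Yod1 had 3, and Fbxo21 and Islr had 2 each. The search covered both strands. Acer2, Tkfc and Tdgf1 had 1 match each, and Prrg4 and Akr1e1 had none, so 6 of the 9 genes held the core. It was found in 56.2% of 32841 promoter windows of the same length. Both matches of Fbxo21 and that of Tkfc also fitted the longer TGGGAA, which 2 of the 9 genes and 21.6% of all windows held and whose matches all contain the core. GC content ranged from 42% in Tdgf1 to 73.2% in Acer2, around a median of 52.4% over all windows. A match says only that these letters are present.

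In Ikzf4-/- cells, the signals of 6 genes (Acer2, Hddc3, Yod1, Prrg4, Fbxo21 and Akr1e1) lay above every WT 1 to 3 array on all 3 arrays, and those of Islr, Tkfc and Tdgf1 lay below. Among all genes tested, 3.62% were higher and 2.92% were lower in this way. In dKO cells 4 genes lay above WT on every array and the same 3 lay below, against 5.34% and 4.22% of all genes. Nothing is read from these counts, because these arrays chose the genes. Acer2 and Prrg4 overlapped WT in dKO cells, so a shift in both genotypes does not describe them array by array. Differences ranged from -0.55 to 0.75 in Ikzf4-/- and from -0.84 to 0.77 in dKO. Their median size was 0.55 and 0.33, against 0.063 and 0.074 over all genes. In Ikzf2-/- cells it was 0.071 against 0.12. Each difference has a standard error (SE) from a limma fit to all 15 arrays.

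**Figure D1:**
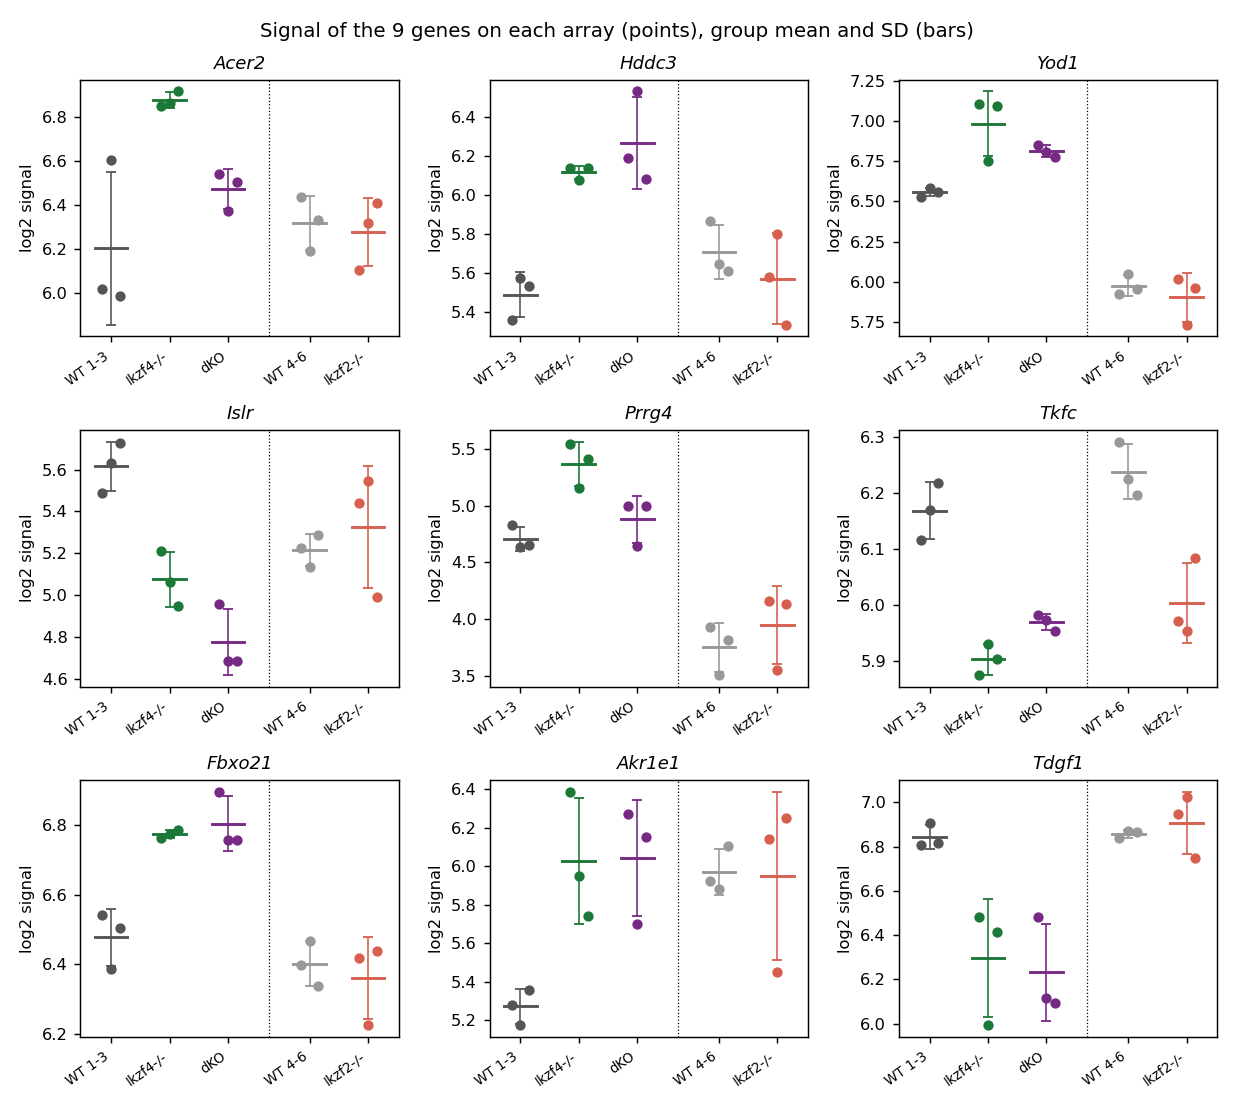
Log2 signal of the 9 genes on each of the 15 arrays (points), with group means (wide bars) and SD (thin bars), n = 3 arrays a group; the dotted line separates the sets. Hddc3 shows the groups apart, at 5.36 to 5.57 in WT 1 to 3 and from 6.08 in both Eos-deficient genotypes, while its Ikzf2-/- arrays overlap WT 4 to 6.

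Acer2 encodes an alkaline ceramidase of the Golgi, which cleaves ceramide to sphingosine. Its log2 signal was 6.02, 6.60 and 5.99 in WT 1 to 3, 6.85, 6.86 and 6.91 in Ikzf4-/-, and 6.54, 6.37 and 6.51 in dKO. All Ikzf4-/- arrays lay above WT, whereas dKO lay between, above WT 1 and 3 and below WT 2. The difference from WT was 0.67 (SE 0.14) in Ikzf4-/-, or 1.59-fold, and 0.27 (SE 0.14) in dKO, whose 95% interval of -0.033 to 0.57 covered 0. WT 2 decides much of this gene. Without it the differences were 0.87 and 0.47. The dKO arrays then no longer overlapped WT, which follows from leaving out the only WT array above them. Of all genes tested, 10.6% lay above WT on every dKO array without WT 2, so nothing is read from this. The dKO difference was smaller without WT 1 (0.18) or WT 3 (0.16). A second, dimmer Acer2 probe set stood at 4.03 on 7 of the 9 arrays of the first set, and averaging both probe sets gave 0.36 and 0.13. In the second set, Acer2 was 6.43, 6.19 and 6.33 in WT 4 to 6 and 6.11, 6.32 and 6.41 in Ikzf2-/-, overlapping ranges with a difference of -0.041 (limma adjusted p = 0.921).

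Hddc3 (also called MESH1) encodes an HD-domain hydrolase, the animal relative of the bacterial enzymes that degrade the alarmone ppGpp, and is known to act on NADPH. The arrays read 5.36, 5.57 and 5.53 in WT 1 to 3, 6.13, 6.08 and 6.13 in Ikzf4-/-, and 6.19, 6.53 and 6.08 in dKO. In each genotype the lowest array lay 0.51 above the highest WT array, the widest gap among the higher genes. Ikzf4-/- exceeded WT by 0.63 (SE 0.13), or 1.55-fold, and dKO by 0.78 (SE 0.13), or 1.72-fold. Hddc3 was 5.87, 5.65 and 5.61 in WT 4 to 6 and 5.58, 5.80 and 5.33 in Ikzf2-/-. These ranges overlapped, and the difference was -0.14 (limma adjusted p = 0.651).

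Tkfc encodes triokinase, the enzyme that phosphorylates glyceraldehyde in fructose breakdown. Its log2 signal was 6.12, 6.17 and 6.22 in WT 1 to 3, 5.87, 5.93 and 5.90 in Ikzf4-/-, and 5.98, 5.97 and 5.95 in dKO. Every knockout array lay below every WT array, with a difference of -0.27 in Ikzf4-/- and -0.20 in dKO (SE 0.068 for both), the smallest differences among the 3 lower genes. Tkfc was also lower in Ikzf2-/- cells, the only one of the 9 genes whose arrays did not overlap there. It read 6.29, 6.22 and 6.20 in WT 4 to 6 and 5.97, 5.95 and 6.08 in Ikzf2-/-. That difference, -0.23 (SE 0.068, 95% interval -0.38 to -0.089), missed the threshold of 0.05 in limma (adjusted p = 0.130, unadjusted p = 0.00386). Over 25 alternative fits the limma adjusted p ranged from 0.0577, with array weights, to 0.574, with only the arrays of its own set. All arrays were lower in 5.5% of all genes in this comparison and higher in 10.7%. The change in Ikzf4-/- minus that in Ikzf2-/- was -0.031 (95% interval -0.24 to 0.17).

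Akr1e1 encodes an aldo-keto reductase that reduces anhydrofructose, a product of glycogen breakdown. Its log2 signal was 5.28, 5.18 and 5.36 in WT 1 to 3, 6.39, 5.95 and 5.74 in Ikzf4-/-, and 6.27, 5.70 and 6.15 in dKO. Both genotypes lay above WT on every array but were widely spread, with an SD of 0.33 and 0.30 against 0.092 in WT (n = 3 each). The differences of 0.75 and 0.77 (SE 0.21), or 1.69-fold and 1.70-fold, were the largest of the 9 genes in Ikzf4-/- and came after Islr and Hddc3 in dKO. In the other set Akr1e1 was 5.92, 5.88 and 6.10 in WT and 6.14, 5.45 and 6.25 in Ikzf2-/-. The Ikzf2-/- arrays spanned the WT range, with a difference of -0.021 (SE 0.21, limma adjusted p = 0.973). Taking all 6 WT arrays as 1 group, across the sets, gave 0.41 in Ikzf4-/- and 0.42 in dKO (SE 0.24 for both).

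Yod1 encodes a deubiquitinase of the ovarian tumour (OTU) family that works with the segregase p97 in the degradation of proteins from the endoplasmic reticulum. Log2 signals were 6.53, 6.58 and 6.56 in WT 1 to 3, 7.11, 6.75 and 7.09 in Ikzf4-/-, and 6.85, 6.81 and 6.78 in dKO. The WT arrays were tight (SD 0.027, n = 3), and every knockout array lay above them. Ikzf4-/- exceeded WT by 0.43 and dKO by 0.26 (SE 0.10 for both). In the other set it was 5.93, 6.05 and 5.95 in WT and 6.02, 5.73 and 5.96 in Ikzf2-/-, overlapping, with a difference of -0.071 (limma adjusted p = 0.779).

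Fbxo21 encodes an F-box protein, the substrate-binding part of an SCF ubiquitin ligase. Its log2 signal was 6.54, 6.39 and 6.50 in WT 1 to 3, 6.76, 6.78 and 6.79 in Ikzf4-/-, and 6.90, 6.76 and 6.76 in dKO. The 6 knockout arrays lay above all WT arrays, by small differences of 0.30 (SE 0.081) and 0.33 (SE 0.081), or 1.23-fold and 1.25-fold. Fbxo21 was 6.40, 6.47 and 6.34 in WT 4 to 6 and 6.42, 6.22 and 6.44 in Ikzf2-/-. The ranges overlapped with a difference of -0.041 (limma adjusted p = 0.855).

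Islr (also called Meflin) encodes a leucine-rich repeat protein of the immunoglobulin superfamily that is known from mesenchymal stromal cells. On the log2 scale Islr read 5.49, 5.63 and 5.73 in WT 1 to 3, 5.21, 5.06 and 4.95 in Ikzf4-/-, and 4.96, 4.69 and 4.68 in dKO. WT lay above both genotypes, and dKO lay under Ikzf4-/- except that dKO 1 (4.96) was just above Ikzf4-/- 3 (4.95). Against WT, Ikzf4-/- stood at -0.54 and dKO at -0.84 (SE 0.13 for both). The dKO difference was the largest of the 9 genes, and the dKO mean of 4.78 lay under the brightness limit. In the other set it was 5.22, 5.13 and 5.28 in WT and 5.44, 5.54 and 4.99 in Ikzf2-/-. That difference was 0.11 (limma adjusted p = 0.732), the 3 Ikzf2-/- arrays lying on both sides of WT. Of 12 stromal marker genes, 4 were above the limit in every group. Their summed linear signal was 3419 to 3623 in WT 1 to 3, 3485 to 4010 in Ikzf4-/- and 4245 to 4468 in dKO, but most of it was Thy1, which T cells also express (3236, 3509 and 4058). The mean log2 signal of the list was 5.03 to 5.12, 5.03 to 5.14 and 5.03 to 5.09. Whether stromal cells contribute to the Islr signal was not tested.

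Tdgf1 (Cripto) encodes the EGF-CFC coreceptor through which Nodal signals, best known from embryos and stem cells. Its log2 signal was 6.81, 6.90 and 6.82 in WT 1 to 3, 6.48, 5.99 and 6.41 in Ikzf4-/-, and 6.48, 6.12 and 6.10 in dKO. Every knockout array lay below WT, by at least 0.32. Against WT, Ikzf4-/- stood at -0.55 and dKO at -0.61 (SE 0.13 for both). Tdgf1 was 6.84, 6.87 and 6.86 in WT 4 to 6 and 6.95, 7.02 and 6.75 in Ikzf2-/-, overlapping, with a difference of 0.049 (limma adjusted p = 0.895). RefSeq lists pseudogenes of Tdgf1, and signal from such copies cannot be told apart here.

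Prrg4 encodes a membrane protein with a proline-rich tail and a Gla domain, which vitamin K dependent carboxylation modifies. On the log2 scale Prrg4 read 4.83, 4.64 and 4.65 in WT 1 to 3, 5.54, 5.16 and 5.41 in Ikzf4-/-, and 5.00, 4.64 and 5.00 in dKO. Ikzf4-/- lay above WT on every array, while dKO overlapped WT. The difference was 0.66 (SE 0.17), or 1.58-fold, in Ikzf4-/- and 0.17 (SE 0.17, 95% interval -0.19 to 0.54) in dKO. The dKO value was 0.29 without dKO 2 and 0.11 without dKO 1 or dKO 3. Prrg4 is dim: it was tested only because its Ikzf4-/- mean of 5.37 passed the brightness limit, which the mean of each other group did not. Prrg4 was 3.93, 3.51 and 3.82 in WT 4 to 6 and 4.16, 3.56 and 4.13 in Ikzf2-/-. These overlapped, with a difference of 0.20 (limma adjusted p = 0.601).

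**Figure D2:**
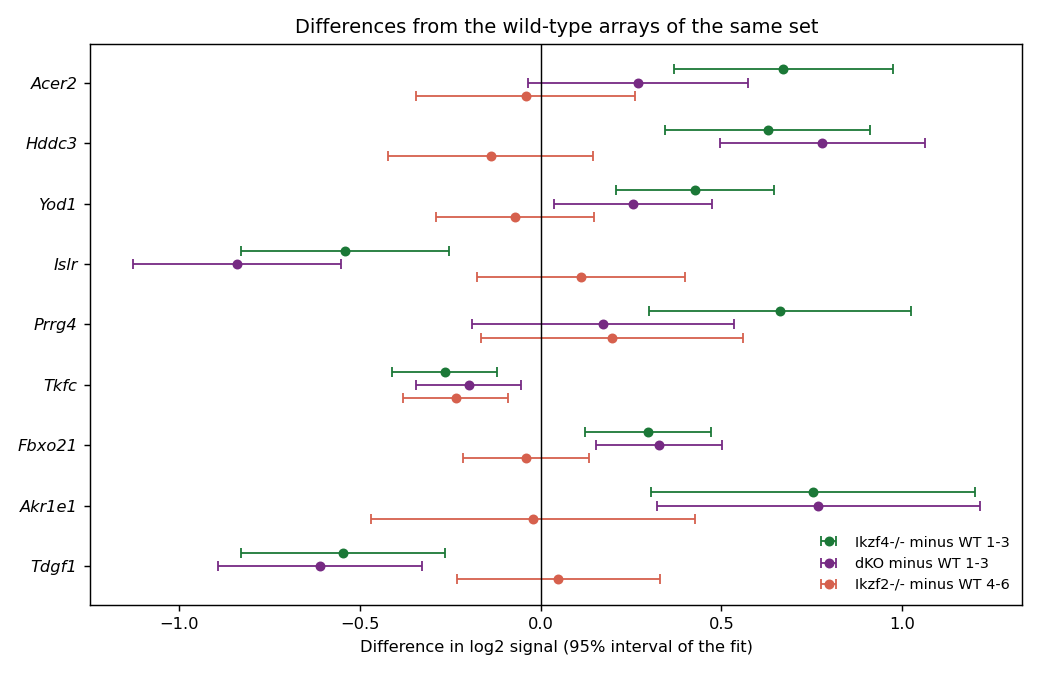
Difference in log2 signal from the WT arrays of the same set for the 9 genes, with 95% intervals from the limma fit; green is Ikzf4-/-, purple dKO (both against WT 1 to 3, which they share) and orange Ikzf2-/- (against WT 4 to 6). Of the Ikzf2-/- intervals only that of Tkfc leaves out 0, and of the dKO intervals those of Acer2 and Prrg4 include it.

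None of the 9 genes passed limma's threshold in Ikzf2-/- cells (0 of 9 called, 1 at an unadjusted p under 0.05). Of all genes tested, 7 passed there (0.0638%) and 1794 had an unadjusted p under 0.05 (16.4%). The arrays of 8 genes overlapped WT 4 to 6, as did those of all genes but the 10.7% that were higher and the 5.5% that were lower. The change from WT in Ikzf4-/- minus that in Ikzf2-/- is given as a description, since the genes were chosen on the Ikzf4-/- values in it, which favours large values. It ran from 0.34 (SE 0.11) for Fbxo21 to 0.78 (SE 0.29) for Akr1e1 among the higher genes, with Prrg4 at 0.46 (SE 0.24). Among the lower genes it was -0.65 (SE 0.19) for Islr, -0.59 (SE 0.19) for Tdgf1 and -0.031 for Tkfc. The change in dKO minus that in Ikzf2-/- is also a description, since the dKO values chose the genes too. It was 0.92 (SE 0.19) for Hddc3, 0.79 (SE 0.29) for Akr1e1, 0.37 (SE 0.11) for Fbxo21 and 0.33 (SE 0.14) for Yod1. For Islr it was -0.95 (SE 0.19) and for Tdgf1 -0.66 (SE 0.19). The 95% intervals covered 0 for Acer2 (0.31, -0.12 to 0.74), Prrg4 (-0.026, -0.54 to 0.49) and Tkfc (0.036, -0.17 to 0.24). The Ikzf2-/- arrays were the most spread of all groups, with a median SD over genes of 0.19 against 0.092 to 0.11 in the other groups.

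The genotypes that lack Eos were also set against each other, as a description with no test, since the values of both chose the genes. Acer2 was lower in dKO than in Ikzf4-/- on every array, by -0.40 (95% interval -0.70 to -0.098), and so was Prrg4, by -0.49 (-0.85 to -0.13). Prrg4 had entered the tested genes through its Ikzf4-/- mean, which favours such a difference. For Islr the difference was -0.30 (-0.59 to -0.013). Its arrays overlapped. Between arrays of the same replicate number, which are not known to be pairs, it was -0.26, -0.38 and -0.27 (SE 0.11 with the replicate block). Such differences were also all negative for Acer2 and Prrg4, and all positive for Tkfc. For Hddc3, Yod1, Fbxo21, Akr1e1 and Tdgf1 they had mixed signs. The intervals covered 0 for the 6 genes other than Acer2, Prrg4 and Islr. They leave room for differences of up to 0.43 in Hddc3 and 0.46 in Akr1e1. Tkfc was higher in dKO on every array, but by 0.067 (-0.078 to 0.21). Limma called 3 of all genes in this comparison (0.0274%), none of them among the 9. Against WT it called 0 genes in Ikzf4-/- (0%), with 239 at an unadjusted p under 0.05. In dKO it called 7 (0.0638%), with 480 unadjusted, and Islr was 1 of the 7. These calls rest on the arrays that chose the genes, so nothing is read from them. With 1 array left out in turn, the number called ran from 0 to 1 in Ikzf4-/-, from 0 to 9 in dKO, from 0 to 409 in Ikzf2-/- and from 0 to 11 between dKO and Ikzf4-/-.

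**Figure D3:**
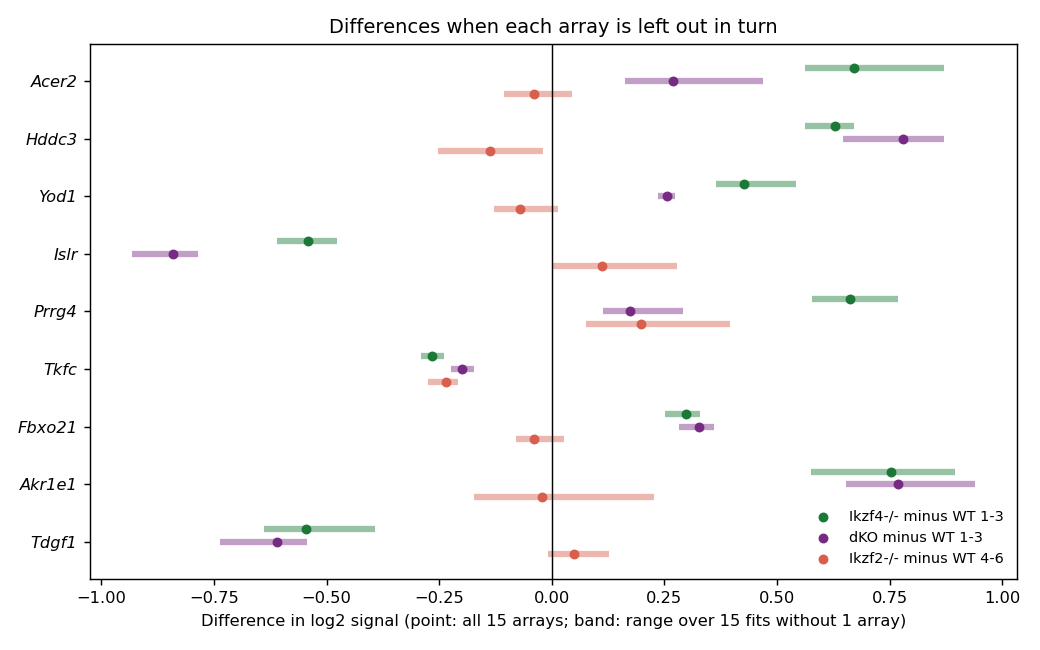
Difference in log2 signal from WT for the 9 genes with all 15 arrays (points) and its range over 15 fits that each leave out 1 array (bands). The Ikzf4-/- and dKO bands, on whose differences the genes were chosen, stay on 1 side of 0 for all 9 genes, while the Ikzf2-/- bands of Acer2, Yod1, Fbxo21, Akr1e1 and Tdgf1 cross it. Leaving out an array outside a comparison does not change its difference.

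Samples that stand apart bear on these values as follows. WT 1 had a summed linear signal of 12 B cell markers of 1886, against 397 to 564 on the other 8 arrays of its set, and of 12 neutrophil markers of 3999, against 228 to 867. Without WT 1, the differences of the 9 genes in Ikzf4-/- ran from -0.60 for Islr to 0.76 for Akr1e1, and in dKO from -0.90 to 0.77. The same numbers of genes (6 and 3 in Ikzf4-/-, 4 and 3 in dKO) then did not overlap WT, against 8.86%, 7.23%, 11.2% and 8.91% of all genes. Ikzf2-/- 3 had 3070 and 10546 for the same marker sums, and without it Tkfc read -0.28. Then 2 of the 9 genes, Islr (0.28) and Tdgf1 (0.13), lay above WT 4 to 6 on both remaining arrays and Tkfc lay below, against 14.1% and 9.07% of all genes. Islr and Tdgf1 were lower than WT in Ikzf4-/- and dKO. The other Ikzf2-/- arrays also had more neutrophil signal (1930 and 1200) than WT 4 to 6 (386 to 646). Ikzf2-/- 2 had the lowest summed Treg marker signal, 8282 against 11131 to 12264 in WT 4 to 6 and 12363 to 13610 in the other Ikzf2-/- arrays. Without Ikzf2-/- 2, the Ikzf2-/- difference was -0.25 for Hddc3, 0.40 for Prrg4 and 0.23 for Akr1e1. In every group 14 of 14 Treg markers were above the brightness limit. Among them, Socs2 stood at 0.070 in Ikzf4-/- and 0.54 in dKO (SE 0.12), Gpr83 at -0.065 and -0.39 (SE 0.26), Nt5e at 0.16 and 0.28 (SE 0.26) and Itgae at 0.13 and 0.17 (SE 0.32).

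A list of macrophage and dendritic cell markers had a lower mean signal on the arrays of both genotypes that lack Eos, though not every gene on it was lower. The mean log2 signal of 13 such genes was 4.76 to 4.98 in WT 1 to 3, 4.48 to 4.66 in Ikzf4-/- and 4.66 to 4.74 in dKO, so every knockout array lay below every WT array. Their summed linear signal was 432 to 881, 336 to 412 and 380 to 512, so the dKO sums overlapped those of WT. Of these genes 4, 3 and 2 were above the brightness limit. In Ikzf4-/- and dKO, the lysozyme gene Lyz2 stood at -2.13 and -1.18 (SE 0.76). Csf1r, which encodes the receptor for macrophage colony-stimulating factor, stood at -0.53 and -0.37 (SE 0.15), and Cd68 at -0.36 and -0.41 (SE 0.15). The other tested genes of the list were Zbtb46, at -0.035 and -0.079 (SE 0.086), and Flt3, which was higher, at 0.062 and 0.045 (SE 0.10). Limma called none of these (adjusted p = 0.912 for Cd68 in dKO and 1 for the other values). Their part in the differences of the 9 genes was not tested.

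The deletions themselves were not visible for Eos: the Ikzf4 probe set read 7.97 ± 0.12 in WT 1 to 3, 8.18 ± 0.045 in Ikzf4-/- and 8.13 ± 0.068 in dKO (SD, n = 3). The position of its probes relative to the deletion is unknown, so this checks nothing. Ikzf2 read 10.65 ± 0.17 in WT 1 to 3 and 10.29 ± 0.27 in dKO, and 10.33 ± 0.075 in WT 4 to 6 and 9.47 ± 0.51 in Ikzf2-/- (SD, n = 3). The Y-linked gene Eif2s3y read 7.94 to 8.81 on WT 3, Ikzf4-/- 3 and dKO 2 and 3, and 2.87 to 3.09 on the other 11 arrays.

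None of the 9 genes lies on chromosome 10, which carries Ikzf4, and Yod1 shares chromosome 1 with Ikzf2. The nearest measured genes on either side, in RefSeq order, were examined for differences next to the 9 genes. Of these 18 neighbours 11 were bright enough to be tested, and limma called none of them in Ikzf4-/- or dKO. Qser1, which lies 4 genes from Prrg4, stood 0.46 above WT in Ikzf4-/- with overlapping arrays and 0.49 above it in dKO on every array (SE 0.14, adjusted p = 0.668). Pfkfb2, next to Yod1, was 0.19 higher in Ikzf4-/- and 0.31 higher in dKO (SE 0.19), with all dKO arrays above WT, and stood at -0.41 in Ikzf2-/-. Man2a2, beside Hddc3, read -0.11 and -0.24, opposite in sign to Hddc3, and lay below WT on every dKO array. The other 15 neighbours overlapped WT on the arrays of both genotypes. Among all genes tested, which leave out the dimmer neighbours, 3.62% were higher and 2.92% lower on every Ikzf4-/- array. In dKO these shares were 5.34% and 4.22%, and nothing is read from the counts of neighbours.

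**Figure D4:**
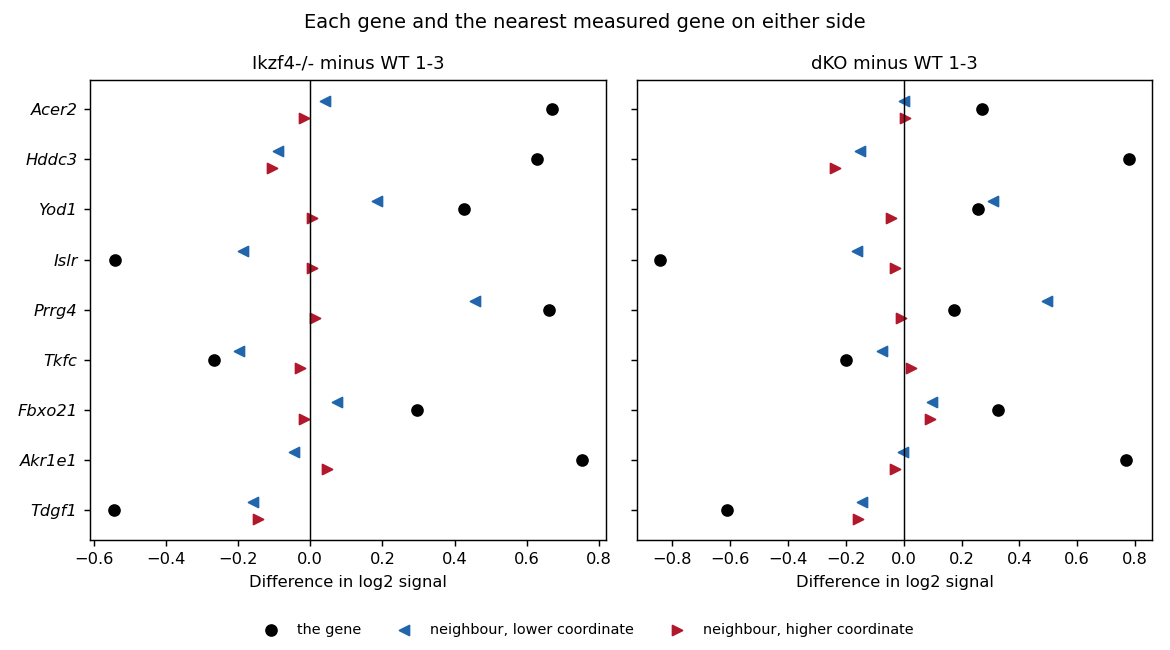
Difference in log2 signal from WT 1 to 3 in Ikzf4-/- (left) and dKO (right) for each of the 9 genes (black) and the nearest measured gene at lower (blue) and higher (red) coordinates. In Ikzf4-/- each of the 9 genes lies farther from 0 than its neighbours. The 9 genes were chosen on these differences, which favours this, so nothing is read from it. In dKO Qser1 (0.49) and Pfkfb2 (0.31) exceed Prrg4 (0.17) and Yod1 (0.26).

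Across the 15 arrays, after the WT mean of each array's set was subtracted, the 9 genes varied together to different degrees. The highest Pearson correlations were 0.92 between Islr and Tdgf1 and 0.89 between Fbxo21 and Akr1e1, and the lowest was -0.89 between Islr and Fbxo21. Those of Tkfc with the others lay between -0.57 and 0.46. The groups chosen for a shift make such values large. After each group's own mean was removed, the highest was 0.78 between Prrg4 and Akr1e1 and the lowest was -0.68 between Hddc3 and Akr1e1. All share the same arrays and normalisation.

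Outside the 9 genes, the gene most like each was sought by the same correlation over 15 arrays. Wls, which encodes the carrier needed for Wnt secretion, was the closest to both Yod1 (r = 0.87) and Akr1e1 (r = 0.85), and read 0.91 in Ikzf4-/-, 1.01 in dKO and 0.14 in Ikzf2-/- against WT. Stap1 was closest to Tdgf1 (r = 0.91, 0.93 over the 9 arrays of the first set and 0.43 over the other 6), at -0.19 and -0.23. Trmt6, a subunit of a tRNA methyltransferase, was closest to Fbxo21 (r = 0.89), at 0.33 and 0.36, though with r = 0.061 over the 6 arrays of the other set. Cnep1r1 was closest to Acer2 (r = 0.90), Kctd17 to Hddc3 (r = 0.90), Synj1 to Islr (r = 0.90), Trim34a to Tkfc (r = 0.84) and Tmem19 to Prrg4 (r = 0.81). Each is the highest among all other genes tested, so the search itself sets high values.

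No other gene of the pathways around the 9 genes was called. Over 8 pathway lists 128 of 184 genes were tested, without the 9 genes themselves, and none passed limma's threshold in any comparison. At an unadjusted limma p under 0.05 there were 0 in Ikzf4-/-, 3 in dKO and 20 in Ikzf2-/-. Over all genes tested the shares were 2.18%, 4.38% and 16.4%, so nothing particular to these lists is read from the counts. The median difference was 0.0096, 0.0032 and 0.042, against 0.0060, 0.0039 and 0.020 over all genes. Among 25 genes of ceramide and sphingosine 1-phosphate metabolism, the median was 0.032 in Ikzf4-/- and -0.039 in dKO. The ceramide synthase gene Cers4 read -0.51 and -0.37 (SE 0.27) and the ceramide kinase gene Cerk -0.24 and -0.47 (SE 0.12, adjusted p = 1 and 0.609). Among 25 OTU deubiquitinase and p97 genes the values lay between -0.14 and 0.12 in Ikzf4-/- and between -0.16 and 0.20 in dKO. The deubiquitinase genes Otud7b and Vcpip1 read -0.14 and -0.13 in Ikzf4-/- and -0.10 and -0.078 in dKO (SE 0.089 and 0.084). The p97 cofactor gene Nsfl1c read 0.11 and 0.20 (SE 0.097), and the ubiquitin ligase gene Syvn1 -0.10 and -0.16 (SE 0.17). Among 30 SCF ubiquitin ligase genes Btrc read 0.21 and 0.043 (SE 0.13), Fbxo3 0.20 and 0.11 (SE 0.19), Fbxo33 -0.084 and 0.36 (SE 0.15) and Fbxo30 -0.063 and -0.35 (SE 0.22).

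The smaller families were described in the same way. Of 16 aldo-keto reductase genes 5 were tested, at -0.19 to 0.086 in Ikzf4-/- and -0.072 to 0.086 in dKO. Akr1c13 read -0.19 and 0.065 (SE 0.20), Akr7a5 -0.15 and -0.019 (SE 0.16), Akr1b10 0.033 and 0.086 (SE 0.14) and Kcnab2 0.055 and -0.072 (SE 0.18). Of 16 Gla and vitamin K genes 6 were tested, with Prrg1, a relative of Prrg4, at 0.18 and -0.029 (SE 0.14), the protein S gene Pros1 at -0.079 and 0.23 (SE 0.21) and the epoxide reductase gene Vkorc1 at -0.018 and -0.14 (SE 0.21). Of 27 genes of Nodal and TGF-beta signalling 15 were tested. The chaperone gene Hspa5, which is on this list as a partner of Cripto, read -0.15 and -0.060 (SE 0.25). The receptor gene Tgfbr2 read 0.027 and -0.17 (SE 0.19), the activin receptor gene Acvr2a 0.11 and -0.077 (SE 0.11), and Lrrc32, which presents latent TGF-beta on Treg cells, 0.012 and 0.27 (SE 0.22). Of 15 genes on the fructose and triose list 10 were tested, with the aldolase gene Aldoc at 0.26 and -0.032 (SE 0.16), the phosphofructokinase gene Pfkl at -0.083 and -0.066 (SE 0.10) and the glycerate kinase gene Glyctk at 0.00087 and 0.14 (SE 0.090). The list also holds Ifih1, which encodes no enzyme of fructose or triose metabolism, at -0.0081 and 0.096 (SE 0.16). Of 16 genes on the phosphohydrolase list, which also holds the kinase genes Nadk and Nadk2, 12 were tested. Among them Nudt9 stood at 0.26 and 0.30 (SE 0.15) and Nudt1 at 0.24 and 0.30 (SE 0.27), in Ikzf4-/- and dKO. Of the Ikaros family itself, Ikzf1 stood at 0.11 and 0.27 (SE 0.096) and Ikzf3 at 0.091 and 0.29 (SE 0.13), and neither was called.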

How the data were processed

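The log2 signals used here are the table the authors deposited, made with Affymetrix Expression Console 1.3.1 and RMA per the submitters' processing notes; RMA removes background, quantile-normalises arrays and summarises probe sets. No source used here names the array's genome build. Probe sets with 1 symbol (21789 of 35556) were named through the platform annotation, with symbols updated by Entrez identifier, and the brightest was kept per gene. Array medians lay between 4.82 and 5.01.

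All arrays entered limma 3.58.1 (R 4.3.3, lmFit and eBayes) with 5 group means, 10 residual and 3.72 prior degrees of freedom, and Benjamini-Hochberg adjustment over 10964 genes at 0.05. Precision is limited by the number of arrays. The fit was tested on simulated data. The 9 genes and the lists were chosen with earlier results of these data known. Named besides the 9 were, per pathway list, the 2 genes with the largest absolute difference in Ikzf4-/- and the 2 in dKO (no list gene was called), the closest gene by correlation and the nearest neighbours (given singly where they did not overlap WT). The same rule gave the macrophage, Treg and Ikaros family genes named, except Zbtb46 and Flt3, which complete the tested genes of their list. The B cell, neutrophil and stromal marker lists are given as levels or counts. Lists for CD8 and NK cells, erythroid cells and plasma cells were also examined but are not described here. Arrays of the first set share replicate numbers, so same-numbered arrays were checked for deviating together. The correlation of their deviations was 0.14, 0.22 and 0.30 for WT with Ikzf4-/- (numbers 1 to 3), 0.43, 0.20 and 0.27 for Ikzf4-/- with dKO, and 0.071, 0.045 and 0.17 for WT with dKO. All are over 0.1 for WT with Ikzf4-/- and Ikzf4-/- with dKO, while for WT with dKO only that of number 3 is. Arrays of unlike numbers were not compared, so these values cannot decide whether the numbers pair the arrays of any of these groups.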

Additional observations from a re-analysis of the deposited data

How the results depend on the processing

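Differences of the 9 genes from WT kept their sign in Ikzf4-/- and dKO under all 11 alternatives (10 for Islr and Prrg4, which the stricter filter leaves out) and with each array left out, and moved by over 1 SD in 6 and 5 of 232 values each. Many of these values could not move. A changed filter, the same set alone, the replicate block or the loss of an array outside a comparison leaves its difference as it was. The genes were also chosen on these differences, which favours a kept sign, so nothing is read from these counts. In Ikzf2-/- 0 of the 9 were called throughout. Counts over all genes were unstable. With the replicate block, dKO against WT gave 1 gene in place of 7, Ikzf4-/- against WT 0 and dKO against Ikzf4-/- 2. For dKO against WT the count was 0 without the filter, with centred arrays or with Eif2s3y as covariate, 2 after quantile normalisation, 3 with the B cell covariate, 4 with all 6 WT arrays, 21 with array weights, and 0 to 9 with 1 array left out. For Ikzf2-/- (7) it was 2 without the filter, 35 after quantile normalisation, 1 with centred arrays, 0 with the same set alone, all 6 WT arrays or either covariate, 64 with array weights, and 0 to 409 with 1 array left out (409 without Ikzf2-/- 1, 167 without Ikzf2-/- 2). For dKO against Ikzf4-/- (3) it was 0 without the filter, after quantile normalisation, with centred arrays or Eif2s3y, 6 with the stricter filter, 1 with the same set alone, 21 with array weights, 7 with the mean of probe sets, and 0 to 11 with 1 array left out. For Ikzf4-/- (0) it was 0 to 1, with 1 gene without WT 2.

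Uncalled differences in Ikzf2-/- that changed sign were Acer2 (0.0089 with centred arrays, 0.017 with all 6 WT arrays, -0.11 to 0.045 with 1 array left out), Yod1 (0.018 with array weights, -0.13 to 0.015), Islr (-0.090 with all 6 WT arrays), Prrg4 (-0.28 with all 6 WT arrays), Fbxo21 (0.0090 with centred arrays, -0.080 to 0.027), Akr1e1 (0.028 with centred arrays, 0.33 with all 6 WT arrays, 0.19 with array weights, -0.17 to 0.23) and Tdgf1 (-0.0092 to 0.13). The cause was not tested. The counts of genes not overlapping WT without WT 1, WT 2 or Ikzf2-/- 3 were chosen after seeing the data. With all 6 WT arrays as 1 group, Yod1 read 0.72 in Ikzf4-/- and 0.55 in dKO (SE 0.16). Islr then read -0.34 and -0.64 (SE 0.15), and Prrg4 1.14 and 0.65 (SE 0.26).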
